A study of Mus musculus with 11 samples.

Results

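Serotonin is made by neurons of the brainstem raphe nuclei and acts through a family of receptors, most of which couple to G proteins. The plasma membrane transporter encoded by Slc6a4 takes it back up, the vesicular monoamine transporter encoded by Slc18a2 loads it into vesicles, and the monoamine oxidases encoded by Maoa and Maob break it down. In newborn rodents, glutamatergic neurons of the primary sensory thalamus are known to hold both transporters for a short time, and so take up and store serotonin that they do not make, while Htr1b is known for its place on their axon terminals in the cortex. The genes described here were 10 of the 54752 in each count table, namely the uptake transporter (Slc6a4), the storage transporter (Slc18a2), the oxidases (Maoa, Maob) and 6 receptors (Htr1a, Htr1b, Htr1d, Htr1f, Htr2c, Htr7), and found by mapping Ensembl identifiers to mouse symbols. All 10 passed the filter on low counts. Htr1f, which reached that filter through MGv and VPM libraries, had at most 7 counts in any dLG library.

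Levels were compared between neurons of the dorsolateral geniculate (dLG), ventral posteromedial (VPM) and ventral medial geniculate (MGv) nuclei, which relay vision, facial touch and hearing. The animals were P0 (day of birth) mice of the ICR/CD-1 strain with the genotype Gbx2CreER-IRES-EGFP/+::R26lsl-tdTomato/+, in which tamoxifen-induced Cre made by Gbx2-expressing cells switches on tdTomato. Dissected nuclei were dissociated and red cells were sorted, so cells without Gbx2-driven Cre at induction lay outside the gate. There were 4 libraries for dLG, 4 for VPM and 3 for MGv, each of 4 pooled brains. No label says whether libraries of a nucleus came from separate litters or days, so p-values measure the spread between these libraries.

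Library totals ran from 10.2 M to 23.6 M counts, and the MGv libraries were the shallowest, at 10.2 M to 13.2 M. A count of 3, taken as the floor, was worth 0.129 to 0.292 CPM (counts-per-million, scaled to the library total and by edgeR's TMM factors). Of 7 pan-neuronal markers, all were over that floor, with summed levels of 8780 to 11500 CPM. The 6 relay neuron markers summed to 1900 to 3020 CPM, but singly they differed between nuclei. Gbx2 and Tcf7l2 were highest in MGv, and Prox1, Slc17a6, Lef1 and Rora were lowest there. Mean Gbx2 was 29.4, 35.3 and 304 CPM in dLG, VPM and MGv, and mean Prox1 75.1, 138 and 9.87 CPM. Markers of raphe serotonin neurons summed to 3.71 to 11.8 CPM, most of it Ddc, with En1 at 0 and Fev at no more than 8 counts in any library. The libraries dLG replicate 2, VPM replicate 3 and MGv replicate 1 stood apart by low Hspa8, a heat shock gene, at 3.05 to 5.56 CPM against 159 to 581 CPM in the others. Without them, each call made below on the 10 genes kept its direction and its side of the threshold, except that of Htr1f between VPM and MGv.

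The promoters of Slc6a4, Slc18a2, Maoa and Htr1b are shown first, as those of the most abundant uptake, storage, breakdown and receptor member per length. They come from RefSeq on build GRCm38.p6 and run from 250 bases before to 50 bases after the start, 5′ to 3′ on the gene's strand. Capitals mark matches to a GC box (GGGCGG) or a cyclic AMP response element (TGACGTCA) on either strand.
Slc6a4, chr11:76998347-76998646, + strand: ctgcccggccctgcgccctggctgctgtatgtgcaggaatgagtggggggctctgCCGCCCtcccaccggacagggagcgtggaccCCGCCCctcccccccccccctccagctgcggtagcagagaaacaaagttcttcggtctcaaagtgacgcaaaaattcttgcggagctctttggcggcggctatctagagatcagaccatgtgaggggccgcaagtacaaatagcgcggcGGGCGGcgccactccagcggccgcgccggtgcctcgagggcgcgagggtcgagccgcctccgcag
Slc18a2, chr19:59260628-59260927, + strand: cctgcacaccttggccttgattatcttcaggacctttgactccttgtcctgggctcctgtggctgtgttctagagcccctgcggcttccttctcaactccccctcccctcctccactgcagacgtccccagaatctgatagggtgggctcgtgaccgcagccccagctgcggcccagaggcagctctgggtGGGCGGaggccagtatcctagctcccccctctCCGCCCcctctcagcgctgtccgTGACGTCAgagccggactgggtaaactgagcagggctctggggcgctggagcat
Maoa, chrX:16619448-16619747, + strand: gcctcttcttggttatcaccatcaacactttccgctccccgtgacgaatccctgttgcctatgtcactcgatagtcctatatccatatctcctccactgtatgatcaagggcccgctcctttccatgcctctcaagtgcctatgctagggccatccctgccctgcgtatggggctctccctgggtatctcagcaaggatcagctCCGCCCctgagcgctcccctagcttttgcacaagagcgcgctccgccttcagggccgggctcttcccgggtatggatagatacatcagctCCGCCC
Htr1b, chr9:81633783-81634082, - strand: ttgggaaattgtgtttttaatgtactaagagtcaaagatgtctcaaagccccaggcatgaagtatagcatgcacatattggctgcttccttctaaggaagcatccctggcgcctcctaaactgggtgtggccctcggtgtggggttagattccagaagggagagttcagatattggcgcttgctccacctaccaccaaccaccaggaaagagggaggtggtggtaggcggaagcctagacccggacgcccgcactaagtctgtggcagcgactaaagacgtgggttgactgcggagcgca
Slc6a4 held 3 GC boxes and 28 CpG sites, and 85.8% of the 32851 promoters in the table held fewer CpG sites. Slc18a2 held 2 GC boxes and the full palindromic cyclic AMP response element, which begins at base 247 of the window and spans the start. That element was present in 1.79% of all promoters, and a GC box in 35.7%. Maoa held 2 GC boxes. Htr1b held neither motif, nor did it hold a TATA box (TATAAA, in 13.6% of promoters), a ROR half-site (AGGTCA, 16.3%), a homeobox core (TAATTA, 5.29%) or a TCF/LEF core (CTTTGAT, 3.73%). A match is only a run of letters. Of the 10 members, 9 had a promoter in the table, Maob being the other, and no TATA box was found in any of the 9.

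The uptake transporter was highest in VPM and the storage transporter in dLG. Slc6a4 (ENSMUSG00000020838, chromosome 11, 76998603 to 77032340, + strand, build GRCm38) encodes the serotonin transporter. Its level in the 4 VPM libraries was 369, 306, 130 and 266 CPM. In dLG it was 86.3, 41.1, 40.4 and 53.2 CPM, and in MGv 55.6, 78.9 and 114 CPM. Every VPM library stood above every library of the other nuclei, whose values overlapped each other. The means were 268 ± 101 CPM in VPM (SD, n = 4), 82.9 ± 29.5 in MGv (n = 3) and 55.2 ± 21.5 in dLG (n = 4). By edgeR's quasi-likelihood test with Benjamini-Hochberg adjustment over all genes tested, Slc6a4 was lower in dLG than in VPM (log2 fold change -2.28 ± 0.33 SE, adjusted p = 0.000705) and higher in VPM than in MGv (1.69 ± 0.36, adjusted p = 0.00701). The difference between dLG and MGv was -0.59 ± 0.34 and did not pass the threshold of 0.1 used throughout (adjusted p = 0.329). It passed in 1 of 25 alternatives, that with no filter on low counts (-0.56, adjusted p = 0.0217). In that setting adjusted p-values could be far smaller than in the main fit, as for Slc6a4 between dLG and VPM (4.21e-39). In such bulk samples, fewer cells with a transcript and less of it per cell cannot be told apart.

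Slc18a2 (ENSMUSG00000025094, chromosome 19, 59260896 to 59296012, + strand) followed a different order, dLG over VPM over MGv. Its level was 760, 286, 729 and 719 CPM in dLG, 370, 368, 206 and 388 CPM in VPM, and 99.8, 140 and 82.7 CPM in MGv. The 3 MGv libraries lay below all others, whereas dLG replicate 2 lay among the VPM libraries. The means were 624 ± 226 CPM in dLG (SD, n = 4), 333 ± 85.1 in VPM (n = 4) and 108 ± 29.6 in MGv (n = 3). Slc18a2 was higher in dLG than in MGv (2.54 ± 0.34, adjusted p = 0.00021) and in VPM than in MGv (1.63 ± 0.32, adjusted p = 0.00452). It was the only member called in all 3 comparisons, but its call between dLG and VPM (0.90 ± 0.29, adjusted p = 0.0755) was near the threshold. Of 25 alternatives, 10 lost it. It was firmer without dLG replicate 2 (1.13, adjusted p = 0.00566), the lowest dLG library, whose removal had to widen the difference. It was also firmer with DESeq2 (adjusted p = 0.0235) and with limma voom (adjusted p = 0.00772). These 2 settings called 14.9% and 27.7% of all genes between dLG and VPM, against 10.7% in the main fit. The call of Slc18a2 between dLG and VPM was lost without dLG replicate 1 (adjusted p = 0.203), dLG replicate 3 (0.172), dLG replicate 4 (0.184), VPM replicate 1 (0.133), VPM replicate 2 (0.135), VPM replicate 3 (0.123) or MGv replicate 1 (0.1). The log2 fold change then lay between 0.74 and 0.95.

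Slc18a2 also loads catecholamines and histamine. The 4 catecholamine neuron markers summed to at most 0.875 CPM in any library, with Dbh at 0. Hdc, which makes histamine, was present at 8.12 to 22.5 CPM in dLG, 5.41 to 8.94 CPM in VPM and 0.486 to 1.14 CPM in MGv. By mean level, Hdc thus had the same order of nuclei as Slc18a2, and its part in the result was not tested.

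**Figure D1:**
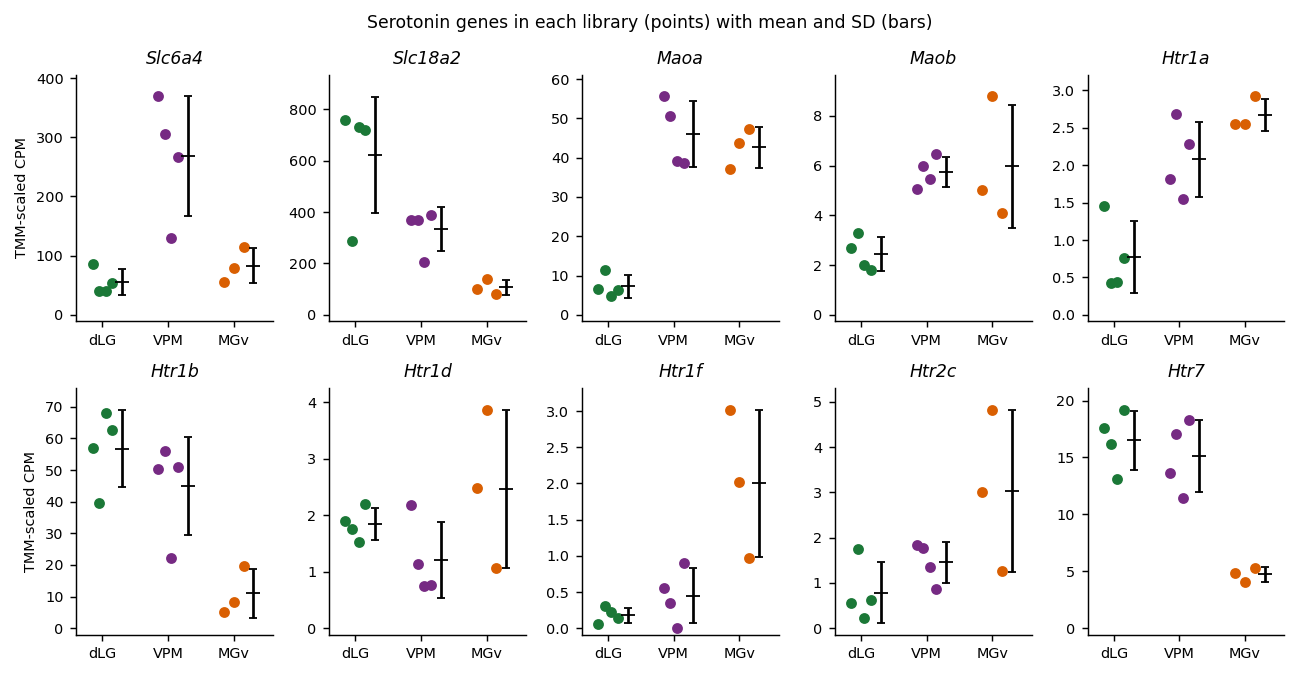
Level of each of the 10 serotonin genes in TMM-scaled CPM (vertical axis, starting at 0 and scaled separately in each panel) in the dLG, VPM and MGv libraries. Each point is a library and the bars are the mean and SD. Slc6a4 is highest in VPM, where its libraries run from 130 to 369 CPM, and Slc18a2 in dLG, where its libraries run from 286 to 760 CPM. Maoa is at 4.69 to 11.3 CPM in dLG and at 37.0 CPM or more in each library of the other nuclei.

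Between genes, levels were compared per kilobase of merged exon (RPKM). Slc18a2 was at 119 ± 43.2 RPKM in dLG, 63.8 ± 16.3 in VPM and 20.6 ± 5.66 in MGv, and Slc6a4 at 12.2 ± 4.74, 59.1 ± 22.4 and 18.3 ± 6.51. By mean RPKM, Slc18a2 ranked 475 of 33156 genes in dLG, 968 in VPM and 2580 in MGv, while Slc6a4 ranked 3736, 1060 and 2830. The ratio of Slc18a2 to Slc6a4 was chosen after its values were seen and is given without a test. It was 7.64, 6.03, 15.6 and 11.7 in the dLG libraries, 0.869, 1.04, 1.38 and 1.26 in VPM, and 1.56, 1.54 and 0.628 in MGv. The transporters were thus near parity per length in VPM and MGv, and in every dLG library the storage transporter was the more abundant. Of the libraries with the lowest Slc18a2 of their nucleus, dLG replicate 2 still had a ratio above every VPM and MGv library, VPM replicate 3 had the highest ratio in VPM, and MGv replicate 3 had the lowest ratio of all 11 libraries.

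**Figure D2:**
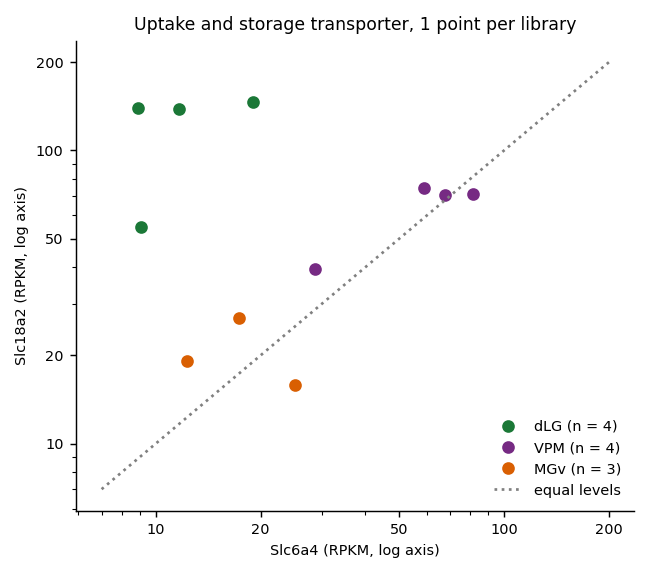
Slc18a2 against Slc6a4 in RPKM, both on log axes, with 1 point per library coloured by nucleus and a dotted line of equal levels. The dLG points lie 6.03 to 15.6 times above the line and those of VPM and MGv lie near it, at ratios of 0.628 to 1.56.

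The oxidases were both lower in dLG than in the other nuclei. Maoa (ENSMUSG00000025037, chromosome X, 16619698 to 16687818, + strand), whose product breaks down serotonin by preference, was at 6.58, 11.3, 4.69 and 6.44 CPM in dLG. It was at 55.6, 50.7, 39.1 and 38.7 CPM in VPM and at 37.0, 43.8 and 47.3 CPM in MGv. No dLG library came near those of the other nuclei, which overlapped. Mean levels were 7.25 ± 2.83 CPM in dLG (SD, n = 4), 46.0 ± 8.47 in VPM (n = 4) and 42.7 ± 5.27 in MGv (n = 3). Maoa was lower in dLG than in VPM (-2.66 ± 0.25, adjusted p = 1.72e-05) and than in MGv (-2.55 ± 0.26, adjusted p = 2.24e-05). VPM and MGv differed by 0.11 ± 0.25 (adjusted p = 0.817).

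Maob (ENSMUSG00000040147, chromosome X, 16709282 to 16817366, - strand) lies beside Maoa, their 3′ ends 21463 bases apart with no annotated gene between them. It was at 2.68, 3.31, 2.02 and 1.81 CPM in dLG, 5.05, 5.97, 5.46 and 6.47 CPM in VPM, and 5.03, 8.78 and 4.08 CPM in MGv. Again the dLG libraries were below all others. Maob was lower in dLG than in VPM (-1.22 ± 0.30, adjusted p = 0.0216) and than in MGv (-1.28 ± 0.32, adjusted p = 0.0167), and without MGv replicate 2 the call against MGv was lost (-0.89, adjusted p = 0.113). VPM and MGv differed by -0.06 ± 0.31 (adjusted p = 0.931), a difference whose sign depended on the processing. Per length, Maoa exceeded Maob 1.56 to 2.38 times in dLG, 4.00 to 7.36 times in VPM and 3.34 to 7.76 times in MGv.

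Cell type markers and sex-linked transcripts were set beside the oxidases. Astrocytes are known to hold Maob, and the 6 astrocyte markers summed to 5.58 to 31.3 CPM in dLG, 40.5 to 53.5 in VPM and 64.2 to 115 in MGv. Most of this was Slc1a3 and Aldoc, with Gfap at no more than 2 counts. Slc1a3 had means of 6.35, 7.15 and 72.5 CPM in dLG, VPM and MGv. Aldoc was highest in VPM (6, 34.5 and 18 CPM), as were Aldh1l1 and Gja1, and Aqp4 was lowest in VPM. The 5 oligodendrocyte lineage markers summed to 12.1 to 30 CPM in dLG, 32.7 to 43.1 in VPM and 74.9 to 85.9 in MGv, most of it Mbp, with Sox10 at no more than 1 count. Both sums were lowest in dLG, like Maoa, Maob and Htr1a. Both were highest in MGv, the astrocyte sum through Slc1a3, like Htr1f, Htr2c, Slc22a3, Slc29a4 and Aldh2. The part of these markers in these results was not tested. Maoa, Maob and Htr2c are X-linked, and dLG replicate 1, dLG replicate 3 and VPM replicate 1 had almost no Y-linked transcripts (0.0609, 0.109 and 0.0927 CPM over 4 genes), against 20.2 to 101 CPM in the MGv libraries. With the level of Xist as a covariate, Maoa differed by -2.68 between dLG and VPM (adjusted p = 4.13e-05) and Maob by -1.23 (adjusted p = 0.0215).

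Among the receptors that couple to Gi, Htr1b was lowest in MGv and Htr1a in dLG. Htr1b (ENSMUSG00000049511, chromosome 9, 81628291 to 81633828, - strand) was at 57.0, 39.6, 67.9 and 62.8 CPM in dLG, 50.5, 56.1, 22.1 and 50.9 CPM in VPM, and 5.03, 8.34 and 19.6 CPM in MGv. The MGv libraries were below all others, and the highest of them came close to VPM replicate 3. Htr1b was higher in dLG than in MGv (2.38 ± 0.42, adjusted p = 0.00191) and in VPM than in MGv (2.04 ± 0.41, adjusted p = 0.0053), while dLG and VPM differed by 0.34 ± 0.35 (adjusted p = 0.667). Without MGv replicate 3, the highest of its nucleus, the differences from MGv were 3.09 for dLG (adjusted p = 0.000571) and 2.76 for VPM (adjusted p = 0.00103). Of its exon bases, 18% overlap the antisense gene D430036J16Rik, and without a stated strand setting reads from this stretch could belong to either gene. D430036J16Rik had 160 to 236 counts in dLG, 110 to 164 in VPM and 11 to 22 in MGv, the same order as Htr1b. Its part in the result was not tested. Of the distinct stretches of 50 bases (the read length) in Htr1b exons, 17.1% also occur in exons of other genes, the antisense gene included. That share was 3.98% for Maoa, 1.14% for Slc18a2 and 0 for the other 7 members.

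Htr1a (ENSMUSG00000021721, chromosome 13, 105443639 to 105448122, + strand), an inhibitory receptor known on raphe cell bodies and on many target neurons, was low. Its level was 1.46, 0.43, 0.436 and 0.764 CPM in dLG, 1.81, 2.68, 1.55 and 2.28 CPM in VPM, and 2.55, 2.55 and 2.92 CPM in MGv, or 8 to 62 counts per library. Each dLG library was below all of the others. Htr1a was lower in dLG than in MGv (-1.80 ± 0.46, adjusted p = 0.0207). Its call between dLG and VPM (-1.44 ± 0.43, adjusted p = 0.0614) was lost without dLG replicate 2 (adjusted p = 0.118), dLG replicate 3 (0.144), dLG replicate 4 (0.135), VPM replicate 1 (0.106), VPM replicate 2 (0.179) or VPM replicate 4 (0.116), and with counts thinned to the smallest total (0.178). VPM and MGv differed by -0.36 ± 0.45 (adjusted p = 0.659).

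Htr1f (ENSMUSG00000050783, chromosome 16, 64924729 to 65105854, - strand) was detected mainly in MGv. There it was at 3.01, 2.02 and 0.972 CPM (40, 23 and 10 counts), against 0.556, 0.346, 0 and 0.904 CPM in VPM (12, 8, 0 and 19 counts). The count of 0 in VPM replicate 3 allows up to 0.186 CPM. In dLG the counts were 1, 7, 4 and 3, at or near the floor. Htr1f was lower in dLG than in MGv (fitted log2 fold change -3.39 ± 0.85, adjusted p = 0.018), a size that depends on the treatment of such low counts. Since Htr1f passed the filter through MGv and VPM libraries, its place among the genes tested is not independent of this difference. Its call between VPM and MGv (-2.11 ± 0.79, adjusted p = 0.0983) was lost in 16 of 24 alternatives, among them those without dLG replicate 1 (adjusted p = 0.111), 2 (0.103), 3 (0.108) or 4 (0.116), VPM replicate 1 (0.159) or 2 (0.195), and MGv replicate 1 (0.307), 2 (0.177) or 3 (0.112). Without the 3 libraries of low Hspa8 it was -1.32 (adjusted p = 0.269).

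Htr1d (ENSMUSG00000070687, chromosome 4, 136423524 to 136444398, + strand), another receptor of the Gi class, was the only member called in none of the comparisons. It was at 1.89, 1.76, 1.53 and 2.20 CPM in dLG, 2.18, 1.13, 0.744 and 0.761 CPM in VPM, and 2.48, 3.86 and 1.07 CPM in MGv, and the nuclei overlapped. The difference nearest to the threshold was that between VPM and MGv (-1.03 ± 0.50, adjusted p = 0.198), which passed it without VPM replicate 1 (-1.47, adjusted p = 0.0925).

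Htr7 (ENSMUSG00000024798, chromosome 19, 35958734 to 36057507, - strand), whose product couples to Gs and raises cyclic AMP, had little spread within a nucleus. It was at 17.6, 16.2, 13.1 and 19.2 CPM in dLG, 13.6, 17.1, 11.4 and 18.3 CPM in VPM, and 4.88, 4.04 and 5.25 CPM in MGv. The MGv libraries were well below the others, and dLG and VPM overlapped. Htr7 was higher in dLG than in MGv (1.81 ± 0.24, adjusted p = 0.000185) and in VPM than in MGv (1.67 ± 0.23, adjusted p = 0.000329), with 0.13 ± 0.20 between dLG and VPM (adjusted p = 0.793). Its promoter held 46 CpG sites, and 98.4% of promoters held fewer.

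Htr2c (ENSMUSG00000041380, chromosome X, 146962513 to 147197277, + strand), whose product couples to Gq, was at 0.548, 1.76, 0.218 and 0.62 CPM in dLG, 1.85, 1.77, 1.36 and 0.856 CPM in VPM, and 3.01, 4.83 and 1.26 CPM in MGv. The lowest MGv library overlapped the highest in dLG. Its call between dLG and MGv (-1.92 ± 0.62, adjusted p = 0.0626) was lost without dLG replicate 1 (adjusted p = 0.155), 3 (0.126) or 4 (0.135), without MGv replicate 1 (0.122) or 2 (0.243), with counts thinned to the smallest total (0.169) and with the level of Xist as a covariate (0.117). Its log2 fold change ran from -2.71 to -1.42 over all alternatives, and was -2.70 without dLG replicate 2 (adjusted p = 0.01), the highest of its nucleus. The other comparisons gave -0.87 ± 0.58 between dLG and VPM (adjusted p = 0.46) and -1.05 ± 0.61 between VPM and MGv (adjusted p = 0.287). The difference between dLG and VPM was -1.66 without dLG replicate 2 (adjusted p = 0.105) and passed the threshold with limma voom (-1.39, adjusted p = 0.0876).

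Per length, Htr1b and Htr7 were the most abundant receptors in each nucleus. Htr1b was at 12 ± 2.6 RPKM in dLG, 9.5 ± 3.26 in VPM and 2.33 ± 1.62 in MGv, and Htr7 at 4.86 ± 0.757, 4.43 ± 0.936 and 1.39 ± 0.183. The other 4 receptors had means of 0.0701 to 0.775 RPKM in every nucleus. Maoa was at 1.74 ± 0.68 RPKM in dLG, 11.0 ± 2.03 in VPM and 10.2 ± 1.26 in MGv, above Htr7 in VPM and MGv and below it in dLG.

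**Figure D3:**
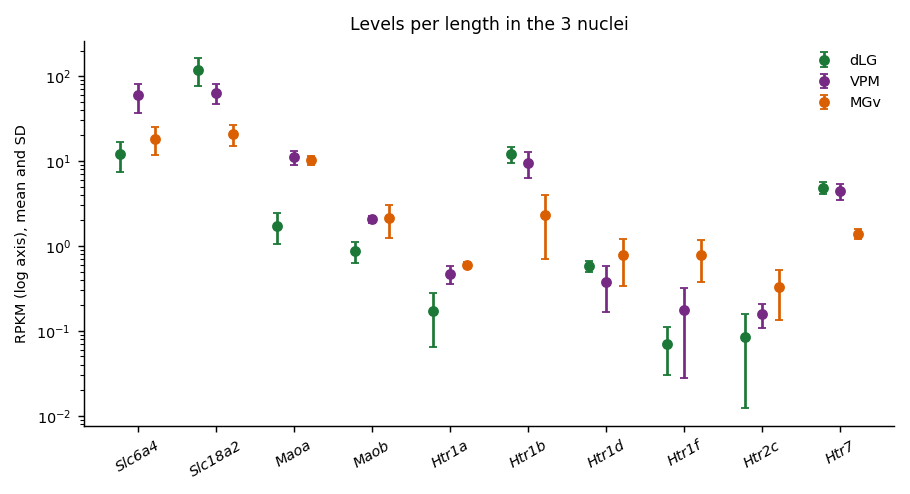
Mean level per kilobase of exon (RPKM, log axis) of the 10 genes in each nucleus, with the SD over 4, 4 and 3 libraries of dLG, VPM and MGv as bars. Slc18a2 has the highest mean in each nucleus (119, 63.8 and 20.6 RPKM), and Htr1a, Htr1d, Htr1f and Htr2c lie below 1 RPKM in each.

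Between dLG and VPM, 5 of the 10 members were called, against 10.7% of all 15907 genes tested. Slc18a2 was the one higher in dLG, a direction called for 4.97% of all genes, and Slc6a4, Maoa, Maob and Htr1a were higher in VPM, a direction called for 5.74%. Between dLG and MGv, 8 members were called, against 16.1% of all genes. Slc18a2, Htr1b and Htr7 were higher in dLG (8.61% of all genes), and Maoa, Maob, Htr1a, Htr1f and Htr2c higher in MGv (7.49%). Between VPM and MGv, 5 members were called, against 19% of all genes, with Slc6a4, Slc18a2, Htr1b and Htr7 higher in VPM (10.4%) and Htr1f higher in MGv (8.56%). Absolute log2 fold changes of the members had medians of 1.06, 1.86 and 1.34 in these comparisons, and those of all genes 0.27, 0.32 and 0.36. Each pair of comparisons shares the libraries of 1 nucleus. The members were chosen with earlier results of these data known, so these shares and medians are no test of them as a set. Htr1f also passed the filter on low counts through MGv and VPM libraries.

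**Figure D4:**
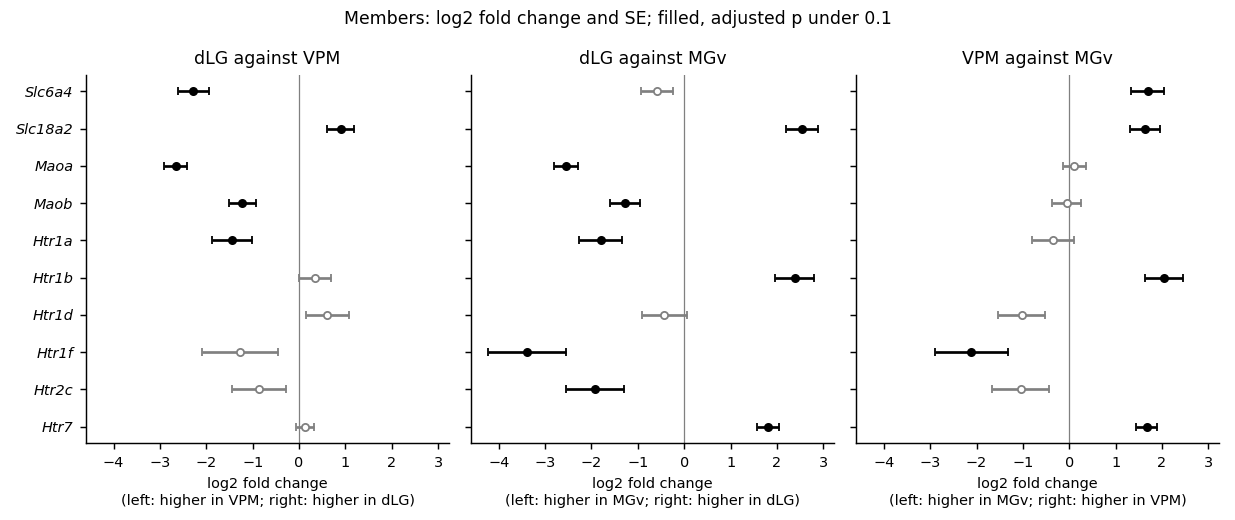
Log2 fold change (horizontal axis) and SE of each of the 10 genes between dLG and VPM, dLG and MGv, and VPM and MGv, with filled points where the adjusted p was under 0.1. Maoa lies at -2.66 and -2.55 in the comparisons with dLG and at 0.11 between VPM and MGv, while Htr1b and Htr7 depart from 0 in both comparisons with MGv.

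For each called member, the 3 genes of at least 5 mean CPM with the most similar log2 CPM over the 11 libraries were named by a rule of Pearson's r among 10480 or 10481 genes. These libraries fall into nuclei, so r mostly follows the order of the nuclei and has no test. Slc6a4 was most like Msl3 (r = 0.976), Pitpnm2 (0.952) and Adgrf5 (0.949), and Slc18a2 most like Rgs20 (0.982), Kcnn1 (0.981) and Plekhg1 (0.977). Maoa was most like Col4a2 (0.985), Nr2f2 (0.984) and Nxph1 (0.983), and Maob most like Sybu (0.939), 2210008F06Rik (0.935) and Slitrk6 (0.932). For Htr1b these genes were Itga9 (0.977), Cxxc5 (0.972) and Ypel2 (0.972), and for Htr7 Chd7 (0.972), Dlgap1 (0.969) and Zfp804b (0.965). The low receptors had Rpn1 (0.943), Ccdc148 (0.939) and Pcdhb7 (0.93) for Htr1a, Acaca (0.937), Gas8 (0.934) and Pknox2 (0.931) for Htr1f, and Pld6 (0.933), Gucy1a1 (0.905) and Cttn (0.903) for Htr2c.

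Around the members, 55 other genes of the serotonin pathway were listed and 44 passed the filter. Between dLG and VPM 5 of these 44 were called (11.4%), all higher in VPM, between dLG and MGv 10 (22.7%, 2 higher in dLG and 8 in MGv) and between VPM and MGv 16 (36.4%, 8 in each direction). Over all genes tested these shares were 10.7%, 16.1% and 19%, so that between dLG and VPM was close to the background. Of the 44, 20 were called in at least 1 comparison. The matching share of all genes tested was not worked out, so this count has no background to be set against. Absolute log2 fold changes of these 44 genes had medians of 0.33, 0.46 and 0.53. These genes, too, were listed with earlier results of these data known. The count between dLG and VPM was 11 without the 3 libraries of low Hspa8, 16 with limma voom and 8 with DESeq2, settings under which 16.1%, 27.7% and 14.9% of all genes were called.

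Of the 7 genes of serotonin synthesis, 3 were called, each between VPM and MGv (42.9%, against 19% of all genes). Tph1, a tryptophan hydroxylase, was at 1.13 ± 0.15 CPM in dLG, 2.47 ± 0.297 in VPM and 0.431 ± 0.307 in MGv, and was higher in VPM than in MGv (2.50 ± 0.53, adjusted p = 0.00713), where its counts were 7, 1 and 7. Tph2, the hydroxylase of raphe neurons, had at most 25 counts in any library. Ddc, which makes serotonin from its precursor, was higher in MGv than in VPM (VPM minus MGv -1.21 ± 0.29, adjusted p = 0.0151), at 8.87 ± 2.77 and 3.85 ± 1.12 CPM. Pts, an enzyme of the cofactor tetrahydrobiopterin, was higher in VPM than in MGv (1.02 ± 0.29, adjusted p = 0.0338).

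Of 3 other carriers tested, the low-affinity, high-capacity carriers Slc22a3 and Slc29a4 were highest in MGv, and Slc18a1, the second vesicular monoamine transporter, was not called. Slc22a3 was at 12.6 ± 2.39 CPM in MGv, 3.06 ± 0.54 in dLG and 2.35 ± 0.926 in VPM, and was lower in dLG (-2.04 ± 0.31, adjusted p = 0.00069) and in VPM (-2.41 ± 0.32, adjusted p = 0.000205). Slc29a4 was at 40.4 ± 6.07 CPM in dLG, 54.5 ± 7.08 in VPM and 88.0 ± 2.75 in MGv, with differences of -0.43 ± 0.14 between dLG and VPM (adjusted p = 0.0885), -1.12 ± 0.15 between dLG and MGv (adjusted p = 0.000268) and -0.69 ± 0.15 between VPM and MGv (adjusted p = 0.00896). The noradrenaline and dopamine transporters, Slc6a2 and Slc6a3, did not pass the filter. Aldh2, an aldehyde dehydrogenase that acts after the oxidases, was higher in MGv than in VPM (VPM minus MGv -0.65 ± 0.14, adjusted p = 0.007) and than in dLG (dLG minus MGv -0.40 ± 0.14, adjusted p = 0.0871).

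Of the 8 remaining serotonin receptors, Htr2a, Htr2b, Htr3a, Htr3b and Htr6 did not pass the filter, and none of the other 3 was called. Htr5a was at 8.46 ± 1.87, 6.20 ± 2.69 and 4.4 ± 1.08 CPM in dLG, VPM and MGv (adjusted p = 0.112 between dLG and MGv). Htr4 was at 2.20 ± 0.427, 0.941 ± 0.763 and 3.05 ± 2.02 CPM (adjusted p = 0.102 between VPM and MGv), and Htr5b at under 1 CPM on average in each nucleus. The 5 genes known as partners of the serotonin transporter, Itgb3, Stx1a, Scamp2, Sec24c and Nos1, gave no call in any comparison. Of all genes, 10.7%, 16.1% and 19% were called, so the lack of calls among so few receptors and partners shows little about them.

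Of the 24 genes of receptor signalling, 4, 7 and 10 were called between dLG and VPM, dLG and MGv, and VPM and MGv (16.7%, 29.2% and 41.7%, against 10.7%, 16.1% and 19% of all genes). S100a10, which encodes the p11 protein that binds the receptor 1B, was highest in VPM, as Slc6a4 was, at 228 ± 72.6 CPM in VPM against 66.0 ± 18.4 in dLG and 60.6 ± 15.9 in MGv. It was higher in VPM than in dLG (dLG minus VPM -1.79 ± 0.25, adjusted p = 6e-04) and than in MGv (1.91 ± 0.28, adjusted p = 0.000559). Plcb1, a phospholipase C that acts after Gq, was at 54.6 ± 18.3 CPM in MGv against 7.18 ± 1.39 in dLG and 10.5 ± 2.59 in VPM, and was higher in MGv than in dLG (dLG minus MGv -2.92 ± 0.27, adjusted p = 1.18e-05) and than in VPM (VPM minus MGv -2.37 ± 0.26, adjusted p = 5.49e-05). Gnas, the Gs subunit, was higher in VPM than in dLG (-0.89 ± 0.23, adjusted p = 0.0322), although 13.1% of its exon bases overlap an opposite gene.

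The adenylyl cyclases, which make cyclic AMP, did not share an order. Adcy8 was highest in MGv, at 26.3 ± 8.50 CPM against 5.97 ± 1.24 in VPM (VPM minus MGv -2.14 ± 0.34, adjusted p = 0.000852). Adcy2 and Adcy5 were lower in MGv than in VPM (3.41 ± 0.68, adjusted p = 0.00483, and 0.61 ± 0.16, adjusted p = 0.0203). Adcy2 had 5, 0 and 10 counts in the MGv libraries, so the size of its fitted difference depends on the treatment of low counts. Adcy1 and Adcy3 were lower in dLG than in VPM (-0.93 ± 0.19, adjusted p = 0.009, and -0.96 ± 0.21, adjusted p = 0.0116), and 22.1% of Adcy3 exon bases overlap a gene on the opposite strand. Of the Gi subunits, Gnai2 was higher in MGv than in dLG (-1.13 ± 0.23, adjusted p = 0.00537) and than in VPM (-0.78 ± 0.23, adjusted p = 0.0418), whereas Gnai1 (0.55 ± 0.21, adjusted p = 0.0991) and Gnai3 (0.46 ± 0.15, adjusted p = 0.0596) were higher in VPM than in MGv. Gnaz was higher in MGv than in dLG (-0.47 ± 0.16, adjusted p = 0.0722). The potassium channel genes Kcnj3 (2.09 ± 0.56, adjusted p = 0.0245) and Kcnj6 (-0.73 ± 0.25, adjusted p = 0.0657) were higher and lower in VPM than in MGv, and 31.1% of Kcnj3 exon bases overlap a noncoding gene on the opposite strand.

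**Figure D5:**
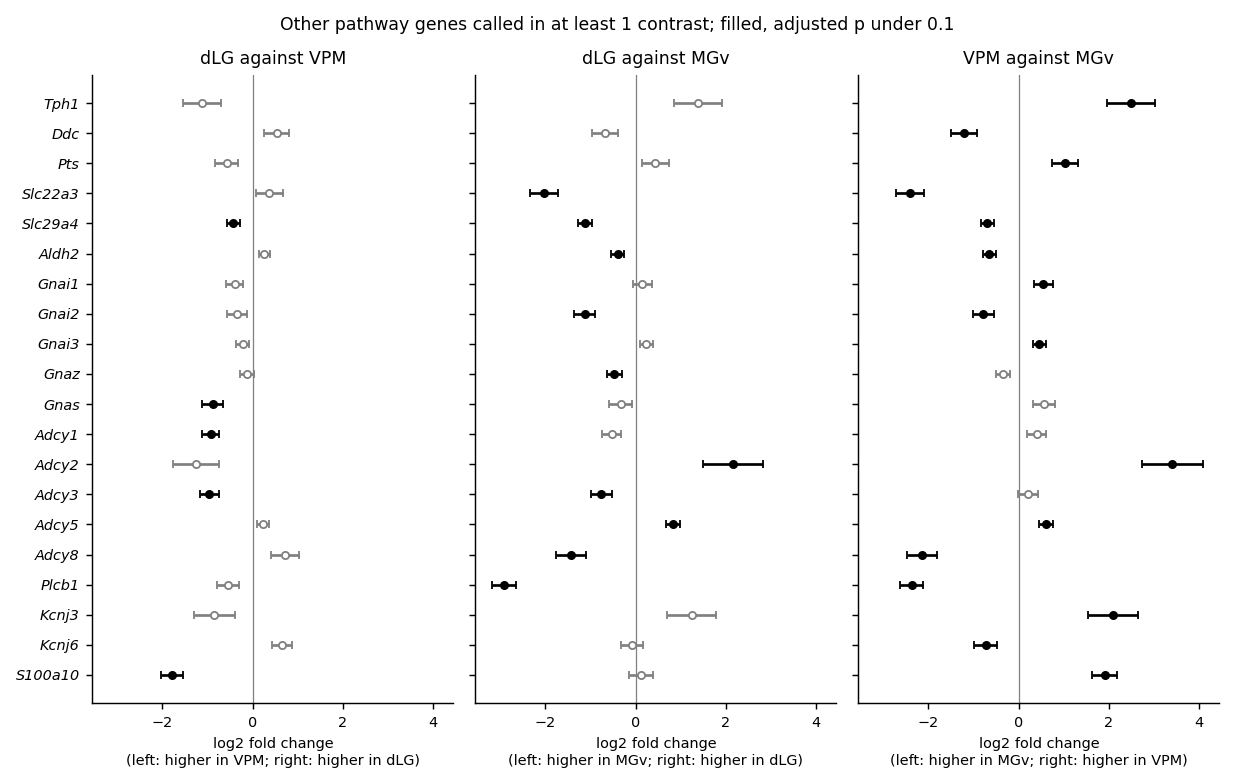
Log2 fold change (horizontal axis) and SE of the 20 other pathway genes called in at least 1 comparison, with filled points where the adjusted p was under 0.1. S100a10 stands apart in both comparisons with VPM (-1.79 and 1.91) and Plcb1 in both comparisons with MGv (-2.92 and -2.37).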

How the data were processed

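Raw read counts per gene were deposited for each of 11 libraries. The authors trimmed single-end reads of SMARTer-amplified cDNA (Trim Galore 0.6.1, Cutadapt 2.3), aligned them to GRCm38.p6 with STAR 2.7.0d and counted them in Ensembl genes with featureCounts (Subread 1.6.4). The strand setting and the treatment of reads with several alignments are not given in the sources used here. The counts hold no normalization.

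Groups and replicate numbers came from the sample titles. Symbols, positions and exons came from GENCODE M21, which had a record for 54723 of 54752 identifiers. Genes were kept by filterByExpr (15907 of the 33170 with a count), scaled by TMM and tested by quasi-likelihood F tests (edgeR 4.0.16 under R 4.3.3) in 1 model of 3 nucleus means over all 11 libraries, two-sided, with Benjamini-Hochberg adjustment over all genes tested and a threshold of 0.1, as in the study, which used DESeq2. The common biological coefficient of variation was 28.2%. CPM are TMM-scaled, RPKM are CPM per kilobase of merged exon, and log2 CPM has a prior count of 2. The floor of 3 counts covers counting error only. Same-nucleus libraries differed by 12.8 to 115 chi-square units per degree of freedom, more than counting noise would give. The fit was tested on simulated counts.

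Every member was named, and other pathway genes when called, with the 3 most similar genes for each called member. The Slc18a2 to Slc6a4 and Maoa to Maob ratios, and uncalled genes given as examples, were chosen after values were seen. The members and lists were chosen with earlier results of these data known. Alternatives were DESeq2 1.42.0, limma voom (limma 3.58.1), other scalings, filters, thresholds, depth, covariates, a replicate block and leaving out libraries.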

Additional observations from a re-analysis of the deposited data

Results flagged for a closer look

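In 3 of the 20 member groups of 4 libraries, 1 library lay far from the other 3. Chance alone places about 1 in 20 of independent groups so. These groups share the same dLG and VPM libraries, so their count is no test of an excess. Slc18a2 was at 286 CPM in dLG replicate 2, and its gap to the next library took a share of 0.913 of the range. Slc18a2 was at 206 CPM in VPM replicate 3 (0.889), and Htr1b at 22.1 CPM in the same library (0.835). Both libraries are among those of low Hspa8. Without all 3 libraries of low Hspa8, Slc18a2 differed by 0.97 between dLG and VPM (adjusted p = 0.00322) and Htr1b by 0.26 (adjusted p = 0.552).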

How the results depend on the processing

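Of 740 log2 fold changes of the members over 25 alternatives, 687 kept their direction and side of the threshold, 44 lost the call, 3 gained one and 6 turned direction. None of those that turned was called. They were Maob between VPM and MGv, at 0.04 with the replicate block, 0.05 with counts thinned to the smallest total, 0.1 with the Xist covariate and -0.26 to 0.33 when single libraries were left out, and Htr1d between dLG and MGv, at -0.78 to 0.04 when single libraries were left out. The alternatives that changed only the threshold (an adjusted p under 0.05 or an absolute log2 fold change over 1) kept the main fit. No direction could turn in them. Leaving out a library of the third nucleus left the libraries compared as they were. Members called between dLG and VPM numbered 3 with the replicate block (9.2% of all genes called) and 3 at an adjusted p under 0.05 (7.38%). Leaving out single libraries gave 3 to 5 members (6.95% to 14% of all genes). Members called between dLG and MGv numbered 5 when at least 10 counts were asked for in every library (16.1% of all genes), since fewer members were then tested. Other pathway genes called between dLG and VPM numbered 8 with DESeq2 (14.9% of all genes) and 16 with limma voom (27.7%). They numbered 1 with an absolute log2 fold change over 1 (5.8%) and 11 without the 3 libraries of low Hspa8 (16.1%). When single libraries were left out they numbered 3 to 7 (6.95% to 14% of all genes), the lowest without dLG replicate 1 (7.38%). An absolute log2 fold change over 1 left 6 between dLG and MGv (9.76% of all genes) and 9 between VPM and MGv (9.8%). Where no construction shows it, the cause was not tested. Whether the replicate numbers pair the libraries cannot be told. Deviations of 10 same-numbered pairs correlated by -0.20 to 0.48 (mean 0.0155, against -0.00505 over 30 other pairs). These deviations were centred within each nucleus, so both means are tied to each other. In each nucleus, Xist was higher in every odd-numbered library than in the even-numbered ones. Y-linked transcripts were almost absent from replicate 1 of dLG and VPM (0.0609 and 0.0927 CPM) but not of MGv (86.6 CPM). With the replicate block the calls of Slc18a2 (adjusted p = 0.123) and Htr1a (0.1) between dLG and VPM and of Htr1f between VPM and MGv (0.108) were lost. Htr1a, Htr1d, Htr1f and Htr2c had at most 62 counts in a library, so depth limits what their comparisons can show.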

Other observations

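Hdc, the enzyme that makes histamine, another amine carried by the vesicular transporter, had means of 17.6 ± 6.45 CPM in dLG (SD, n = 4), 7.25 ± 1.45 in VPM (n = 4) and 0.718 ± 0.367 in MGv (n = 3). Th, the enzyme of catecholamine synthesis, had at most 9 counts in any library.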
